A study of Populus alba x Populus glandulosa with 18 samples.

Results

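The 200 gene IDs whose levels differed most between replicate libraries of the same genotype were examined in roots of 84K poplar, which is a hybrid clone from Populus alba and Populus glandulosa. Of 71159 IDs in the deposited table, 19535 had a mean of at least 5 FPKM (sequenced fragments scaled by transcript length and library size) over the 18 libraries. For each of these the group mean of log2(FPKM + 1) was subtracted, and the 200 IDs with the largest pooled within-group SD, on 12 degrees of freedom, were kept. They are 1.02% of the IDs that met the limit on the mean. The within-group values chose the members, so everything said of their deviations is a description and carries no test.

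The series looked for genes up- and downstream in the regulation of a root phenotype, in plants with changed basic helix-loop-helix (bHLH) transcription factors, and all share the 84K background. Each of the 6 groups has 3 libraries: wild type (WT), bhlh58-KO (line 6), bhlh151-KO (line 40), bhlh58/151-KO (line 32), bHLH58-OE (line 20) and bHLH151-OE (line 17), where KO marks a knockout and OE an overexpression line. Every transgenic genotype is 1 line, and the promoter of the overexpression lines is not given in the sources used here. Whether replicates are separate plants is not stated in the labels. The spread described here can therefore be technical, and the p-values below measure no other spread.

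As background, genes that respond to the environment are known from Arabidopsis to be common among those that vary most between genetically identical plants. Copies of a gene that lie in a row, and the copies that a hybrid holds from each parent, often share long stretches of sequence. Fragments that match several copies must then be divided between them by the counting program. In bulk tissue, fewer cells of a type and less RNA per cell cannot be told apart.

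The files do not pair the IDs with gene names, so no function is given for any ID, and neither the root origin nor the targeted genes could be checked on named markers. IDs have the form PAxG, a chromosome number, the letter A or G and a running number, or are called NewGene. A few carry the letters Mt or Pt in place of the chromosome number and letter. The letters are not explained in the sources used here. The running number goes up in steps of 100, and IDs 1 step apart are called next-number IDs below. What the numbers say of distance on the chromosome was not examined. No library stood apart from the rest: FPKM totals ran from 514745 to 536562, the IDs with at least 1 FPKM from 36450 to 38499, and the root-mean-square deviation of the 19335 other IDs of mean at least 5 from 0.0995 to 0.129 on the log2 scale. Depth per library is unknown, so the share of counting error in any deviation is unknown too.

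The members' pooled SD had a median of 0.427 on the log2(FPKM + 1) scale, beside 0.119 for all 19535 IDs. The upper quartile was 0.541 and the highest value 2.65. At the limit, PAxG04Ag0042200 was the last member, with a pooled SD of 0.3389 (mean 5.14 FPKM), and PAxG07Gg0047300 was the first ID left out, with 0.3388 (mean 9.06 FPKM), so the end of the list is not a gap in the data. Members had a median level of 8.96 FPKM, against 11.2 for all IDs above the limit, with a range from 5.01 to 150.5. In 193 of the 200 the highest library of at least 1 group was at 2 times the lowest or more, in 66 this held in at least 3 groups and in 5 in all 6 groups. Of the 19335 other IDs, 284 (1.47%) had such a difference in any group. The SD that chose the members rises with such differences, so this contrast follows in part from the choice.

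The kinds of ID among the members were close to those in the table. The letter A was carried by 90 members (45% against 47.9% of all 19535 IDs), the letter G by 92 (46% against 46.3%), and 16 were NewGene IDs (8% against 5.77%). The share of IDs that were members ran from 0.417% on chromosome number 18 to 2.44% on chromosome number 11. Only 2 Mt IDs reached a mean of 5 FPKM, and both were members.

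The top of the ranking was made of IDs with very large jumps between libraries of 1 group. In 36 members, called switching members below, the highest library of a group was at least 5 times the lowest, and none of the 19335 other IDs of mean at least 5 did this. A jump of this size raises the SD that ranked the IDs, so the contrast follows largely from the choice. The first 25 members by SD all belong to these 36, and 17 of the 36 switched in at least 3 groups. All of the first 10 members were listed at exactly 0 in some library. In total 14 members were listed at 0 in 1 to 10 libraries, and each of them had a 0 beside a value of at least 5 FPKM in the same group. A value of exactly 0 may stand for an estimate that failed, so these IDs are given library by library.

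PAxG08Ag0169600 had the largest SD of the 19535 IDs (2.65). It was at 117, 0 and 126 FPKM in WT replicates 1 to 3, at 102, 107 and 68.9 in bhlh58-KO, at 49.7, 0 and 1.73 in bhlh151-KO, at 4.28, 57.3 and 45.3 in bhlh58/151-KO, at 60.8, 0 and 107 in bHLH58-OE, and at 61.0, 70.7 and 43.8 in bHLH151-OE. In 4 of the 6 groups the libraries thus held both low and high values, and the groups overlapped. PAxG03Gg0128300, second with an SD of 2.31, was listed at 0 in all WT libraries, at 6.57, 0 and 0 in bhlh58-KO, at 25.2, 52.1 and 91.2 in bhlh151-KO, at 0, 0 and 82.8 in bhlh58/151-KO, at 0.357, 30.6 and 51.5 in bHLH58-OE, and at 24.4, 0 and 17.6 in bHLH151-OE. In the other 4 groups low values, at 0 or 0.357, stood beside higher ones, and only WT and bhlh151-KO were free of this.

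Several switching IDs had a nearly constant upper level. PAxG05Gg0201700, singled out after its values were seen, was at 22.2, 0 and 0 FPKM in WT, 27.2, 0 and 24.05 in bhlh58-KO, 18.8, 18.4 and 23.0 in bhlh151-KO, 23.5, 0 and 23.7 in bhlh58/151-KO, 24.8, 0 and 27.6 in bHLH58-OE, and 0 in each bHLH151-OE library. Its 10 libraries above 0 lay between 18.4 and 27.6. PAxG03Gg0081900, singled out likewise, was at 0, 0 and 13.4 in WT, 12.8, 14.2 and 0 in bhlh58-KO, 10.7, 11.1 and 0 in bhlh151-KO, 13.9, 13.3 and 15.0 in bhlh58/151-KO, 12.4, 15.4 and 13.8 in bHLH58-OE, and 12.2, 14.2 and 0 in bHLH151-OE. PAxG05Gg0201700 was at 0 in replicate 2 of 5 of the 6 groups, all but bhlh151-KO, while for PAxG03Gg0081900 replicate 3 was at 0 in 3 groups and replicates 1 and 2 in WT. What replicate numbers stand for is not given in the labels.

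In 3 members most of the spread came from a single library listed at 0. PAxG01Gg0445600 was at 8.01 to 12.6 FPKM in 17 libraries and at 0 in bHLH151-OE replicate 3, which held 64.9% of its within-group sum of squares. PAxG19Gg0061900 was at 8.36 to 17.5 in 17 libraries and at 0 in bHLH58-OE replicate 3, which held 62.3%. These are the largest shares of 1 library among the members. NewGene_4719, named after its values were seen, was at 2.70 to 8.35 in 17 libraries and at 0 in bhlh58-KO replicate 2, which held 58.3%. In all, 8 members had at least 50% in 1 library, and the other 5 were not listed at 0 in any.

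**Figure D1:**
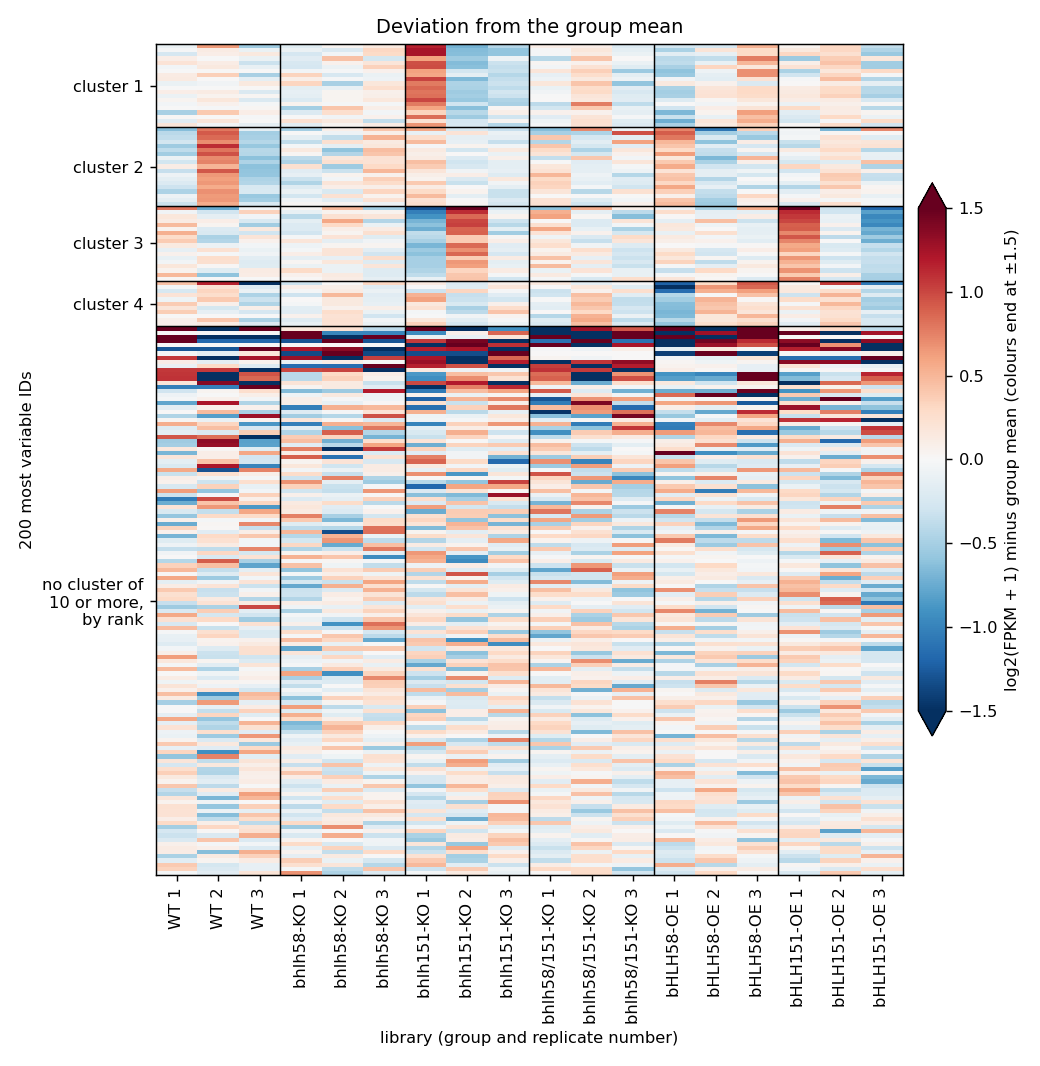
Deviation of log2(FPKM + 1) from the group mean for the 200 IDs (rows) in the 18 libraries (columns, 3 per group), red above and blue below the group mean, with colours ending at 1.5 in either direction. The 4 clusters of at least 10 IDs stand on top, each with blocks of 1 colour in single libraries, and the strongest colours belong to the first IDs by rank in the lower part, which follow no common pattern.

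Some members had a next-number ID that moved in the opposite direction. Of the 200 members, 155 had a next-number ID with at least 1 FPKM in at least 3 libraries. In 18 of these (11.6%) the deviations correlated at -0.8 or lower with such an ID over the 18 libraries, against 26 of 15169 other IDs (0.171%). A correlation of 0.8 or higher was found for 19 members (12.3%) and 112 other IDs (0.738%). These correlations use the deviations that chose the members, and small deviations hold a larger part of noise, so the shares are given without a test. At -0.9 or lower there were 11 members (7.10%) and 5 other IDs (0.033%). The 18 members made 12 mirrored pairs, 6 with both IDs among the 200 and 6 with a partner outside. Among the first 31 members by SD there were 9 of the 18, and 7 were among the 36 switching members. Rank 31 is itself that of a mirrored member, and the cut there was set after the ranks were seen.

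**Figure D2:**
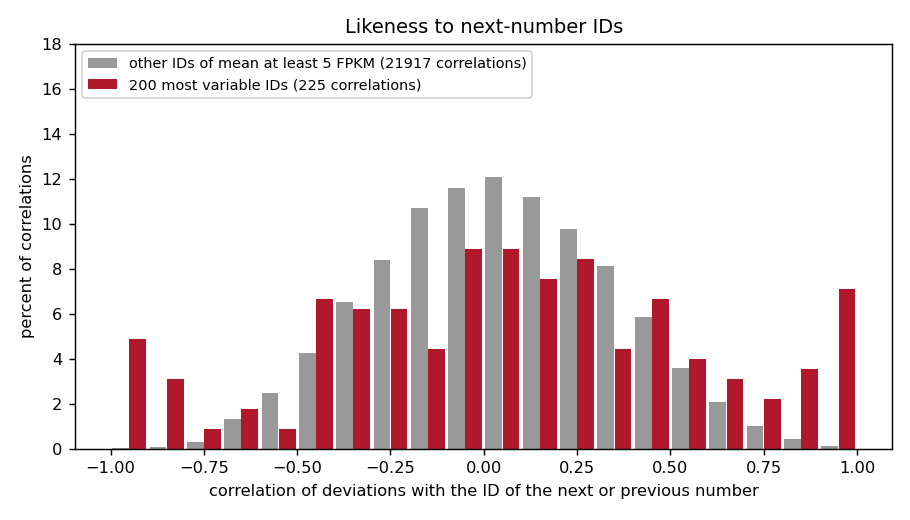
Histogram of the correlation of deviations with next-number IDs, in percent of the correlations of each set, for 225 correlations of the 200 most variable IDs and 21917 of the other IDs of mean at least 5 FPKM. The grey bars fall off on either side of 0, while the red bars rise again at both ends, where 18 members lie at -0.8 or lower and 19 at 0.8 or higher.

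The pairs named here were chosen after their values were seen. PAxG12Ag0080400 and PAxG12Ag0080300 had the most opposed deviations (r = -0.963 over 18 libraries), and only the first is a member. PAxG12Ag0080400 was at 6.75, 7.29 and 6.66 FPKM in WT, 5.94, 5.44 and 5.27 in bhlh58-KO, 0.883, 5.22 and 6.12 in bhlh151-KO, 0.920, 6.50 and 6.17 in bhlh58/151-KO, 7.21, 7.37 and 7.70 in bHLH58-OE, and 0.835, 7.94 and 0.717 in bHLH151-OE. PAxG12Ag0080300 was at 1.25, 1.04 and 0.905 in WT, 1.02, 1.49 and 1.17 in bhlh58-KO, 8.85, 0.440 and 0.738 in bhlh151-KO, 8.66, 0.922 and 0.794 in bhlh58/151-KO, 1.32, 0.787 and 1.07 in bHLH58-OE, and 10.5, 2.05 and 11.6 in bHLH151-OE. The same 4 libraries were low for the first ID and high for the second, and the other 14 had the reverse order.

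In the pair PAxG08Gg0166200 and PAxG08Gg0166100 (r = -0.939) the low level of the first ID was the same each time. PAxG08Gg0166200 was at 117, 117 and 12.1 FPKM in WT, 103, 105 and 12.2 in bhlh58-KO, 72.8, 62.4 and 63.5 in bhlh151-KO, 121, 117 and 12.1 in bhlh58/151-KO, 126, 119 and 107 in bHLH58-OE, and 112, 111 and 108 in bHLH151-OE. PAxG08Gg0166100 was at 19.5, 14.8 and 67.0 in WT, 20.6, 22.2 and 59.4 in bhlh58-KO, 6.75, 6.73 and 8.18 in bhlh151-KO, 13.1, 11.5 and 58.1 in bhlh58/151-KO, 9.94, 14.9 and 23.3 in bHLH58-OE, and 10.7, 15.8 and 15.8 in bHLH151-OE. Replicate 3 of WT, bhlh58-KO and bhlh58/151-KO carried the switch, and the other 15 libraries did not overlap with these 3 for either ID.

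The member with the largest SD belonged to such a pair as well. PAxG08Ag0169500, the next-number ID of PAxG08Ag0169600 (r = -0.891), was at 19.7, 71.9 and 15.9 FPKM in WT, 22.2, 18.6 and 38.5 in bhlh58-KO, 13.7, 29.6 and 30.97 in bhlh151-KO, 63.2, 36.6 and 41.3 in bhlh58/151-KO, 40.7, 61.3 and 20.2 in bHLH58-OE, and 27.2, 26.9 and 42.3 in bHLH151-OE. WT replicate 2 and bHLH58-OE replicate 2, listed at 0 for PAxG08Ag0169600, were the highest of their groups for PAxG08Ag0169500, whereas bhlh151-KO replicate 2, also at 0, was not. In this pair the levels between the extremes were filled too, so it showed no clean pair of states.

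A set of 3 consecutive numbers joined both kinds of relation. PAxG15Gg0068000 and PAxG15Gg0068100 had the highest correlation of all 19900 member pairs (0.985), and PAxG15Gg0067900 mirrored PAxG15Gg0068000 (-0.952). PAxG15Gg0068000 was at 22.9, 1.92 and 19.4 FPKM in WT, 2.08, 4.20 and 3.23 in bhlh58-KO, 3.04, 11.5 and 7.95 in bhlh151-KO, 27.9, 3.30 and 29.6 in bhlh58/151-KO, 2.94, 3.12 and 20.0 in bHLH58-OE, and 2.85, 4.07 and 10.3 in bHLH151-OE. PAxG15Gg0067900 was at 1.75, 10.0 and 2.44 in WT, 8.41, 7.20 and 7.95 in bhlh58-KO, 9.11, 5.77 and 8.06 in bhlh151-KO, 0.952, 9.80 and 2.14 in bhlh58/151-KO, 9.90, 10.4 and 2.01 in bHLH58-OE, and 10.1, 8.81 and 6.32 in bHLH151-OE. The 5 libraries in which PAxG15Gg0067900 was below 2.5 FPKM were those in which PAxG15Gg0068000 was above 19.

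The sum of both IDs varied less than its parts in most mirrored pairs. The pairs were chosen for opposed deviations, which tend to cancel in a sum, so a smaller SD follows largely from the choice. No other pairs were set beside them. In 10 of the 12 pairs the pooled SD of the summed FPKM was below that of each ID, and over the 12 pairs it had a median of 0.250 and ran from 0.0826 to 1.06. For PAxG12Ag0080300 and PAxG12Ag0080400 the SDs were 0.967 and 0.836, and that of the sum was 0.181. For PAxG01Ag0274000 and PAxG01Ag0274100 they were 0.361 and 0.378, and that of the sum was 0.0826, under the median of all IDs. FPKM is scaled by length, so such a sum weights fragments of both IDs unequally. Whether the counting program divided shared fragments differently between libraries was not tested.

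Opposite movement also joined an A and a G ID of the same chromosome number in 2 pairs of members. PAxG07Ag0088000 was at 15.2, 14.1 and 1.54 FPKM in WT, 13.2, 12.7 and 5.71 in bhlh58-KO, 9.94, 16.3 and 13.0 in bhlh151-KO, 8.78, 14.1 and 13.0 in bhlh58/151-KO, 6.83, 12.3 and 10.8 in bHLH58-OE, and 19.0, 16.8 and 11.4 in bHLH151-OE. PAxG07Gg0089100 was at 7.45, 7.82 and 23.5 in WT, 14.0, 13.5 and 16.9 in bhlh58-KO, 12.9, 17.4 and 13.6 in bhlh151-KO, 19.3, 14.0 and 13.7 in bhlh58/151-KO, 15.6, 10.4 and 13.2 in bHLH58-OE, and 10.9, 8.47 and 16.0 in bHLH151-OE. Their correlation was -0.866, with WT replicate 3 at the extreme of both, and the summed FPKM had an SD of 0.142 beside 0.728 and 0.439 for the parts. The other pair, PAxG06Ag0151900 and PAxG06Gg0150700, had a correlation of -0.844 and an SD of 0.0989 for the sum. Both pairs were picked at -0.8 or lower, so a small SD of the sum again follows largely from the choice.

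**Figure D3:**
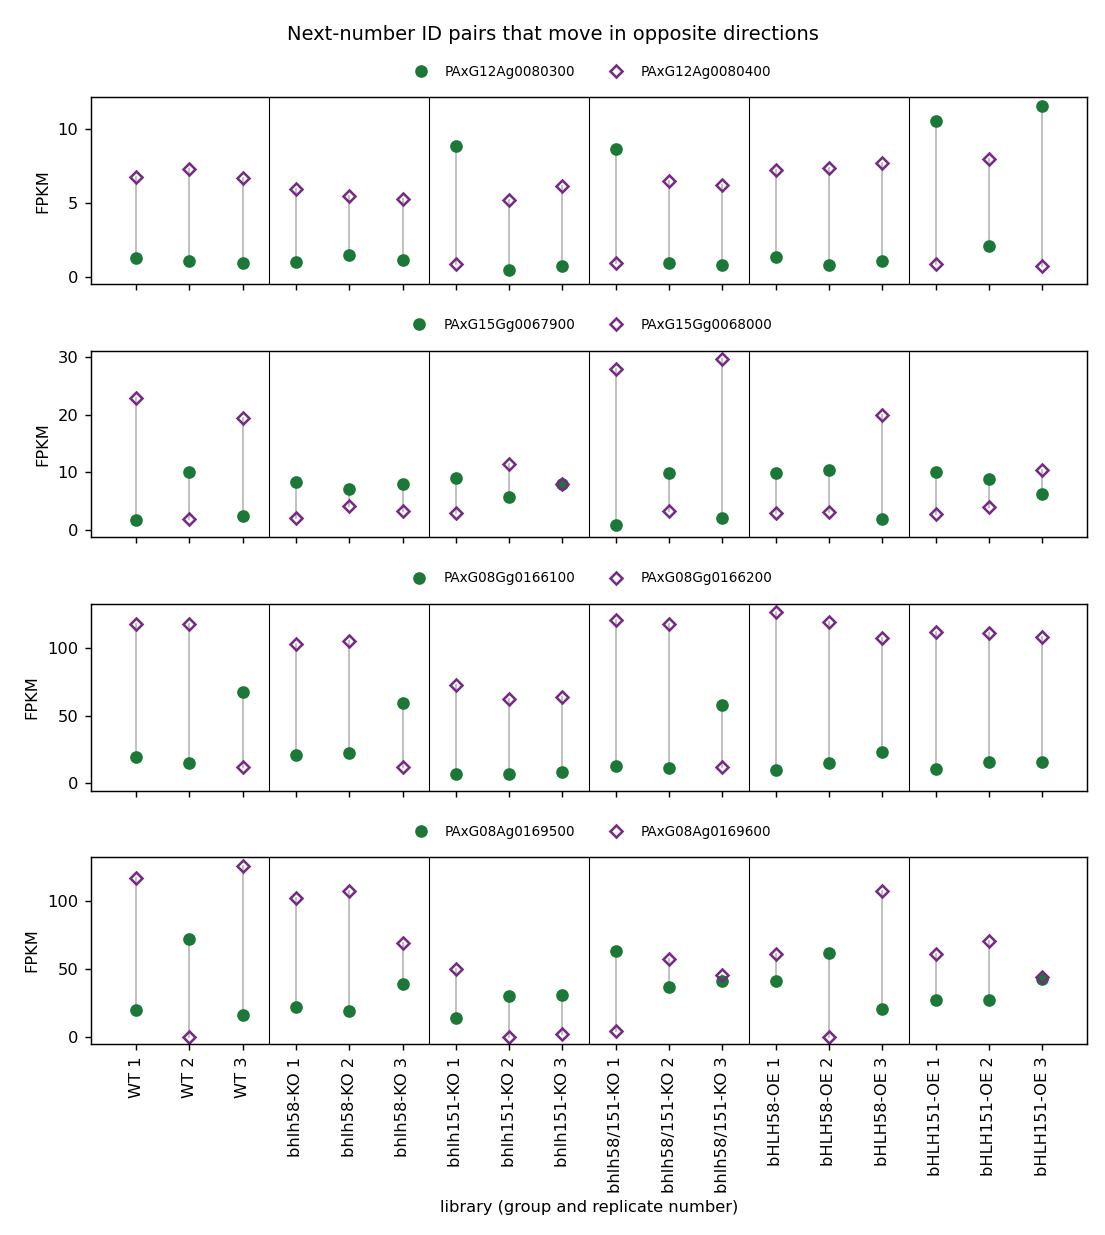
FPKM in each of the 18 libraries for 4 pairs of next-number IDs, with circles for the lower number, diamonds for the higher number and a grey line joining both IDs of a library. Where the diamond drops the circle rises, as in replicate 3 of WT, bhlh58-KO and bhlh58/151-KO for PAxG08Gg0166200, at 12.1, 12.2 and 12.1 FPKM.

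Below the switching IDs, deviations were graded and were shared by sets of members. Deviations of the 200 were grouped by their Pearson correlation over the 18 libraries, with average linkage and a limit at a mean correlation of 0.5. All these correlations share the same 18 libraries, and the 3 deviations of a group sum to 0. This gave 4 clusters of at least 10 IDs with 68 members together, while 132 members fell into smaller clusters, 6 of them alone. Only 3 of the 36 switching members were in the 4 clusters. The clustering method matters here: with complete linkage 1 cluster of at least 10 IDs was left.

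Cluster 1 held 20 IDs with a mean pairwise correlation of 0.677 and was high in bhlh151-KO replicate 1. All 20 were above their group mean there, on average by 0.80 ± 0.27 on the log2 scale (SD over the 20 IDs), and all 20 were below it in bhlh151-KO replicate 2, at -0.49 ± 0.17. In bhlh58/151-KO replicate 2 all 20 were above the mean too, by 0.25 ± 0.16. bhlh151-KO replicate 1 held 32.8% of the cluster's sum of squares, and without that library the mean correlation was 0.494. The IDs nearest to the cluster's mean deviation were PAxG17Ag0214200 and PAxG17Ag0214300 (r = 0.955 and 0.946 with the mean of the other IDs). Outside the members, 24 of the 19335 other IDs correlated with the cluster mean at 0.8 or higher and 12 at -0.8 or lower.

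The core of cluster 1 was a row of 5 consecutive A numbers, PAxG17Ag0214100 to PAxG17Ag0214500, and a row of 3 consecutive G numbers, PAxG17Gg0275000 to PAxG17Gg0275200. Correlations ran from 0.936 to 0.976 within the A row, from 0.796 to 0.902 within the G row and from 0.839 to 0.946 between both rows. PAxG17Ag0214300 was at 11.1, 11.1 and 11.4 FPKM in WT, 39.6, 40.8 and 52.7 in bhlh58-KO, 54.2, 20.8 and 22.2 in bhlh151-KO, 52.9, 68.2 and 50.04 in bhlh58/151-KO, 27.1, 43.3 and 47.1 in bHLH58-OE, and 51.1, 57.7 and 34.5 in bHLH151-OE. The WT libraries agreed closely and lay below every library of the lines, while replicate 1 of bhlh151-KO was more than 2 times each of the other libraries of that group. PAxG17Ag0214200 followed the same order, at 23.2, 23.5 and 18.4 in WT and at 79.98, 30.9 and 37.4 in bhlh151-KO.

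Cluster 2 held 19 IDs with a mean pairwise correlation of 0.636 and was high in WT replicate 2. There all 19 were above the group mean, by 0.74 ± 0.16, and in WT replicate 3 all were below it, at -0.45 ± 0.14. All 19 were above the mean in bHLH58-OE replicate 1, by 0.46 ± 0.21, and below it in bHLH58-OE replicate 2, at -0.40 ± 0.23. WT replicate 2 held 24.2% of the sum of squares, and the mean correlation was 0.446 without it. The nearest IDs were PAxG11Ag0138000 and PAxG11Ag0138100, which are next-number IDs (r = 0.925 and 0.910). PAxG11Ag0138100 was at 6.55, 20.1 and 7.07 FPKM in WT, 19.9, 14.1 and 26.4 in bhlh58-KO, 28.7, 27.1 and 25.2 in bhlh151-KO, 62.1, 44.8 and 56.7 in bhlh58/151-KO, 30.2, 14.7 and 16.0 in bHLH58-OE, and 7.56, 8.75 and 7.17 in bHLH151-OE. Its WT replicate 2 thus reached the range of bhlh58-KO, and the other WT libraries lay below it.

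The 2 Mt members were part of cluster 2 and correlated at 0.869 with each other. PAxGMtg0007100 was at 14.5, 29.4 and 13.0 FPKM in WT, 21.2, 33.0 and 30.6 in bhlh58-KO, 27.2, 17.5 and 14.9 in bhlh151-KO, 13.0, 16.0 and 27.9 in bhlh58/151-KO, 41.7, 18.8 and 31.7 in bHLH58-OE, and 17.0, 24.2 and 24.8 in bHLH151-OE. PAxGMtg0008500 was at 4.26, 9.69 and 3.62 in WT and at 11.2, 5.69 and 8.77 in bHLH58-OE. For both, WT replicate 2 and bHLH58-OE replicate 1 were the highest of their groups, and the 6 groups overlapped.

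Cluster 3 held 18 IDs and had the highest mean pairwise correlation, 0.717. All 18 were above the group mean in bhlh151-KO replicate 2 (0.74 ± 0.33) and in bHLH151-OE replicate 1 (0.77 ± 0.29), and all were below it in bhlh151-KO replicate 1 (-0.60 ± 0.27) and bHLH151-OE replicate 3 (-0.61 ± 0.27). In the other 4 groups the mean deviation stayed between -0.15 and 0.19. bHLH151-OE replicate 1 held 22.1% of the sum of squares, and the mean correlation was 0.591 without it. The pattern reached beyond the members, since 344 other IDs correlated with the cluster mean at 0.8 or higher, against 24, 100 and 26 for clusters 1, 2 and 4. The nearest outside ID was PAxG08Gg0052200 (r = 0.983 over 18 libraries).

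Named by their likeness to the cluster mean were PAxG08Ag0069700 (0.950) and PAxG02Ag0204800 (0.933). PAxG02Ag0204800 was at 13.9, 11.7 and 18.6 FPKM in WT, 55.8, 62.3 and 62.6 in bhlh58-KO, 22.8, 103 and 44.4 in bhlh151-KO, 65.0, 40.6 and 33.8 in bhlh58/151-KO, 21.4, 16.0 and 16.0 in bHLH58-OE, and 62.1, 22.6 and 15.6 in bHLH151-OE. PAxG02Gg0207900, a G ID of the same chromosome number, correlated with it at 0.980, the second highest value of all member pairs, and was at 32.3, 100 and 48.8 in bhlh151-KO and 59.5, 26.5 and 18.9 in bHLH151-OE. Both IDs varied less in WT, bhlh58-KO and bHLH58-OE than in the other 3 groups, though PAxG02Ag0204800 was not even in WT. PAxG08Ag0069700 was at 18.1, 54.4 and 26.3 in bhlh151-KO and at 26.1, 14.6 and 13.3 in bHLH151-OE.

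Cluster 4 held 11 IDs with a mean pairwise correlation of 0.665 and was set apart by low values in bHLH58-OE replicate 1. All 11 were below the group mean there, at -0.77 ± 0.36, and all were below it in bHLH151-OE replicate 3, at -0.39 ± 0.27. bHLH58-OE replicate 1 held 26.2% of the sum of squares, and the mean correlation was 0.504 without it. NewGene_5492 (r = 0.917) was at 72.8, 75.6 and 60.0 FPKM in WT, 126, 158 and 127 in bhlh58-KO, 42.0, 27.4 and 30.9 in bhlh151-KO, 129, 207 and 129 in bhlh58/151-KO, 95.9, 172 and 182 in bHLH58-OE, and 232, 343 and 219 in bHLH151-OE. Here some groups were apart as well: all bHLH151-OE libraries lay above, and all bhlh151-KO libraries below, those of every other group. The libraries of bhlh58-KO, bhlh58/151-KO and bHLH58-OE overlapped. PAxG11Gg0113800 (r = 0.916) was at 12.0, 26.5 and 22.1 in bHLH58-OE.

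**Figure D4:**
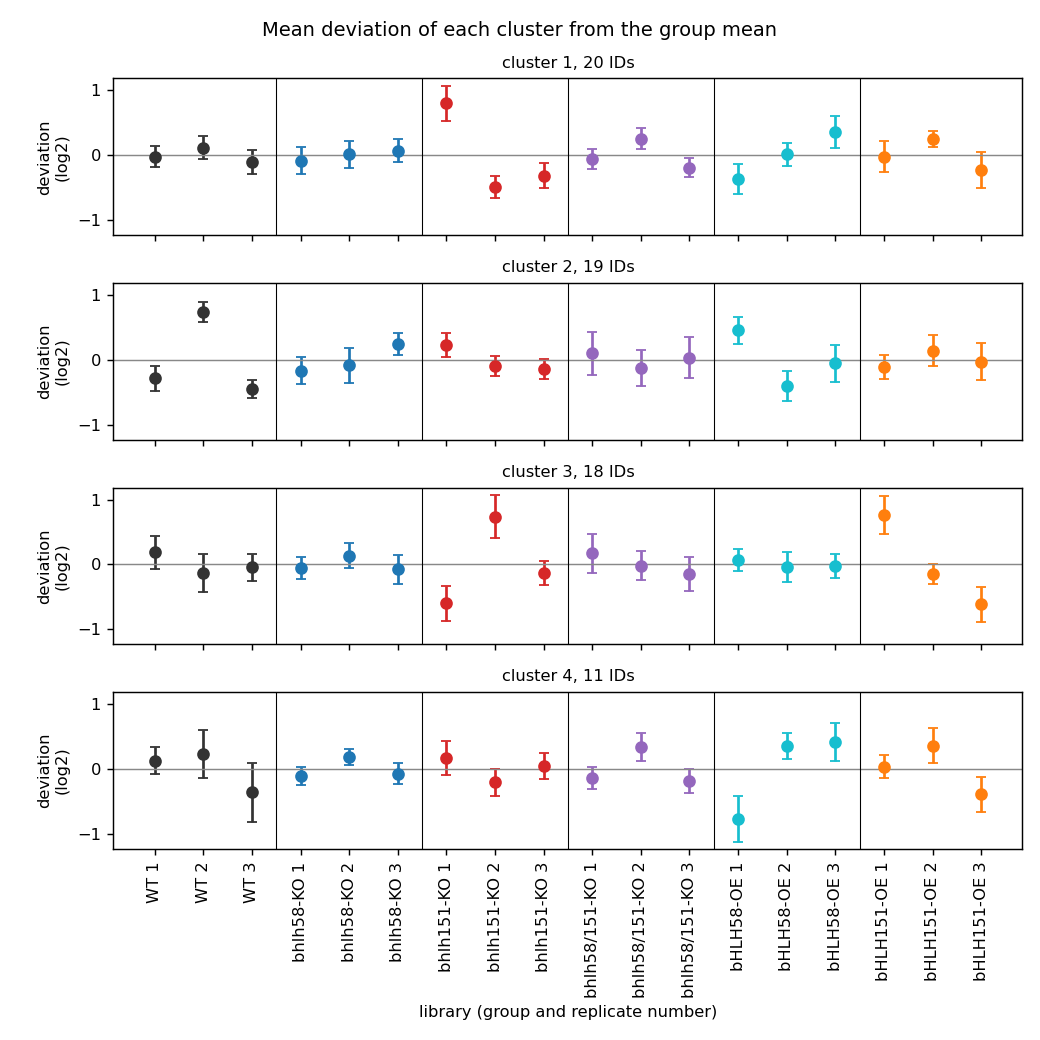
Mean deviation from the group mean on the log2(FPKM + 1) scale for the 4 clusters in each of the 18 libraries, coloured by group, with bars of 1 SD over the IDs of the cluster. Each cluster leaves 0 most clearly in other libraries: bhlh151-KO replicate 1 (0.80), WT replicate 2 (0.74), bhlh151-KO replicate 2 and bHLH151-OE replicate 1 (0.74 and 0.77), and bHLH58-OE replicate 1 (-0.77).

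Strong correlations made a larger share of the pairs with near numbers, or of A and G IDs with the same chromosome number, than of all pairs. Of the 36 member pairs with the same chromosome number and letter and running numbers within 500, 18 (50%) correlated at 0.8 or higher and 8 at -0.8 or lower. Of the 500 pairs of an A and a G ID with the same chromosome number, 28 (5.6%) reached 0.8, beside 178 of all 19900 pairs (0.894%). Pairs within and between the chromosome 17 rows made up most of the 18 and most of the 28, and are counted in the 178. Of the 178, 118 had neither relation and no NewGene ID. In all, 92 of the 200 members were in a pair at 0.8 or higher. The pair PAxG06Gg0057900 and PAxG06Ag0058500 was at 0.90: the first was at 49.0, 47.3 and 96.6 FPKM in bhlh58-KO and the second at 32.8, 33.6 and 67.3, so that replicate 3 was about as far above the others in both.

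No library or group carried the list. The 18 libraries held from 3.33% (bhlh58-KO replicate 1) to 7.83% (WT replicate 2) of the members' within-group sum of squares, where even shares would be 5.56%. By group the share ran from 13.1% in bhlh58-KO to 19.2% in bhlh151-KO. WT replicate 2 was the library with the largest deviation for 31 members, bhlh151-KO replicate 2 for 22, bhlh151-KO replicate 1 for 21 and bHLH58-OE replicate 1 for 17, and every other library for 5 to 10. For single members the largest group share had a median of 41.9%, and 55 members had at least 50% in 1 group. With 3 libraries a group, the largest of 6 shares lies well above an even share even where all groups vary alike. These shares were not computed for other IDs, so they do not show that members are uneven. The first principal component of the deviations held 17.0% of their variance, the second 15.1% and the third 13.1%, and 8 components were needed for 80% of a space of 12 dimensions. Without the 36 switching members the first component held 20.98%.

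A large spread recurred in libraries that had no part in the choice. The rule was applied to 5 groups at a time, and the SD of the 200 IDs so found was measured in the group left out. Its median was 2.71 times that of all IDs above the limit in WT (0.259 against 0.0959), 2.89 times in bhlh58-KO, 2.82 in bhlh151-KO, 2.78 in bhlh58/151-KO, 2.92 in bHLH58-OE and 3.33 in bHLH151-OE (0.347 against 0.104). From 117 to 141 of the 200 were above the 90th percentile of all IDs in the group left out, while 20 to 29 were at or below its median. These lists shared 154 to 179 IDs with the 200 members. The IDs of 1 list share their libraries, so no test was made over them.

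**Figure D5:**
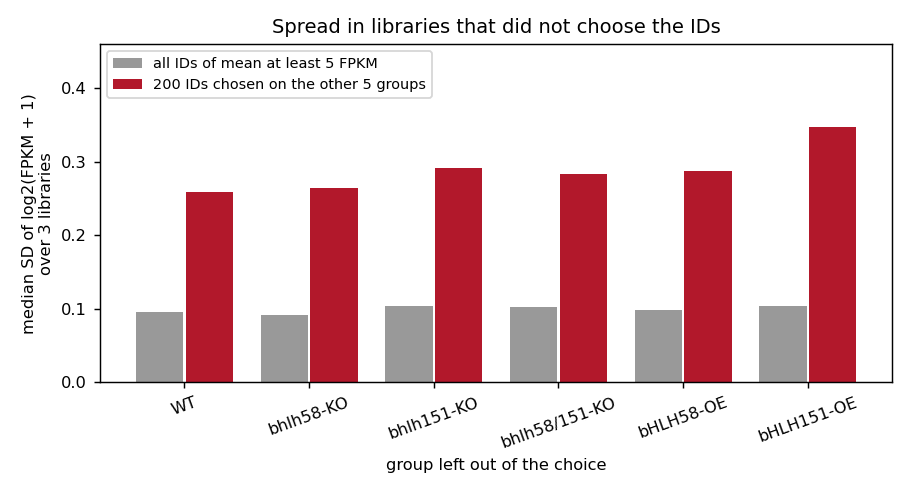
Median SD of log2(FPKM + 1) over the 3 libraries of the group named on the horizontal axis, for all IDs of mean at least 5 FPKM (grey) and for the 200 IDs with the largest pooled SD in the other 5 groups (red). The red bars, from 0.259 to 0.347, stand above the grey bars, from 0.0912 to 0.104, in each of the 6 groups.

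Differences between genotypes were tested with limma on the 40951 IDs that reached 1 FPKM in 3 or more libraries, all 200 members among them. A call means a p under 0.05 after Benjamini-Hochberg adjustment over all 40951. Differences between groups were taken out before members were ranked by SD, but the spread in the test is what ranked them. The limit on the mean used the levels of all groups, so an ID low in WT could pass through the lines. The IDs of mean at least 5 share that limit. The log2(FPKM + 1) scale also narrows the spread at low levels. Members had a median standard error of 0.319 against 0.0971 for all IDs of mean at least 5, so a low count of calls follows from the choice. A difference among any of the groups was called for 90 members (45%) by the moderated F-test, where 56.7% of all tested IDs and 66.8% of the IDs of mean at least 5 were called. Against WT, 101 members (50.5%) were called in at least 1 line, beside 60.9% of all tested IDs and 69.7% of IDs of mean at least 5. In all 5 lines 10 members (5%) were called, beside 2.41% and 4.13%. The 5 comparisons share the WT libraries, so their counts are not independent.

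Calls of higher levels outnumbered calls of lower levels in every line, and lower calls made a smaller share of the members than of all tested IDs in each. No test was made of these shares, and how far the choice of members adds to them was not tested. In bhlh58-KO 43 of the 200 members were called (21.5%), beside 22.4% of all tested IDs and 30.5% of IDs of mean at least 5. The 38 higher members were 19% of the 200, beside 12.9% and 18.4%, and the 5 lower ones 2.5%, beside 9.51% and 12.1%.

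In bhlh151-KO 82 members were called (41%), beside 48.4% of all tested IDs and 56.6% of IDs of mean at least 5. The 61 higher ones were 30.5% of the members, beside 17.6% and 26%, and the 21 lower ones 10.5%, beside 30.8% and 30.6%. In bhlh58/151-KO 70 members were called (35%), beside 28.8% and 37%. Of these, 64 were higher (32%, beside 12.6% and 19.3%) and 6 lower (3%, beside 16.3% and 17.8%). This was the line in which the share of higher calls was furthest above that of IDs of mean at least 5.

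In bHLH58-OE 13 members were called (6.5%), beside 5.37% of all tested IDs and 8.1% of IDs of mean at least 5. Of these, 12 were higher (6%, beside 3.3% and 5.11%) and 1 lower (0.5%, beside 2.07% and 2.99%). In bHLH151-OE 44 members were called (22%), beside 32% and 39.7%. The 37 higher ones made 18.5% of the members, the same share as among IDs of mean at least 5 (18.5%) and above that of all tested IDs (11.5%). The 7 lower ones made 3.5%, beside 20.4% and 21.2%.

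The median log2 fold change of the 200 members was 0.27 in bhlh58-KO, 0.33 in bhlh151-KO, 0.45 in bhlh58/151-KO, 0.25 in bHLH58-OE and 0.25 in bHLH151-OE, while over all tested IDs it ran from -0.11 to 0.009. Under median-of-ratios scaling the median of all tested IDs in bhlh151-KO moved from -0.11 to 0.002, and the members' medians ran from 0.24 to 0.51. Calls of higher levels outnumbered those of lower levels under each scaling tried. The same 200 members were used each time, so this does not bear on how they were chosen. The count for bHLH58-OE rested on single libraries, with 20 calls without WT replicate 2 and 7 without bHLH58-OE replicate 3.

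The IDs with the largest changes were taken from called members whose libraries did not overlap with WT. PAxG06Ag0058500 was at 3.57 ± 1.36 FPKM in WT (SD, n = 3) and at 57.8 ± 12.3 in bhlh151-KO, a log2 fold change of 3.70 (SE 0.33, limma adjusted p = 4.03e-07). In bhlh58-KO and bhlh58/151-KO this ID and PAxG06Gg0057900 had the largest rises, with log2 fold changes of 3.28 and 3.42 in the first and 3.64 and 3.59 in the second (limma adjusted p from 2.55e-06 to 0.000115). The rise was not particular to knockouts: in bHLH151-OE the log2 fold changes were 2.22 and 2.20 (limma adjusted p = 0.000152 and 0.00196). In bHLH58-OE neither ID was called. Within groups the spread of both IDs was small beside the difference between WT and the knockout lines. At 3.57 FPKM in WT, PAxG06Ag0058500 met the limit of 5 on the mean only through other groups. How far that choice adds to its rise was not tested. PAxG03Gg0128300 had the largest fitted rise in bhlh151-KO, but it was listed at 0 in every WT library, so no fold is given. It was called there (limma adjusted p = 0.0249), and the call did not hold without any 1 of the WT libraries, or without replicate 2 or 3 of bhlh151-KO (0.0562 to 0.0734).

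In each overexpression line the largest rise among these members was that of PAxG17Gg0275100, in the chromosome 17 rows of cluster 1. PAxG17Gg0275100 rose from 13.9 ± 2.78 FPKM in WT (SD, n = 3) to 52.7 ± 17.5 in bHLH58-OE, a log2 fold change of 1.82 with an SE of 0.37 (limma adjusted p = 0.0124), and to 76.7 ± 24.6 in bHLH151-OE, where it was 2.35 with the same SE (limma adjusted p = 0.000334). The bHLH58-OE call was lost without WT replicate 3 (0.0552) or bHLH58-OE replicate 3 (0.0552). PAxG17Ag0214100 rose from 11.6 ± 1.19 to 43.6 ± 12.2 in bHLH58-OE (1.79, SE 0.36, limma adjusted p = 0.0118). NewGene_5669 of cluster 4 rose from 21.4 ± 5.73 to 104 ± 34.2 in bHLH151-OE (2.22, SE 0.33, limma adjusted p = 0.000195). By the way these IDs were chosen, all libraries of the line lay above those of WT in each case.

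Falls were fewer. PAxG14Gg0089000, in cluster 1, fell from 14.6 ± 1.89 FPKM in WT (SD, n = 3) to 4.04 ± 1.06 in bhlh58-KO. The log2 fold change was -1.64 with an SE of 0.25 (limma adjusted p = 0.000151), and it was called lower in each of the other 4 lines, with log2 fold changes from -1.42 to -0.997. In bHLH58-OE that call was lost without WT replicate 2 (limma adjusted p = 0.0529) and in a fit of WT and bHLH58-OE alone (0.127). PAxG10Gg0009700 fell from 10.8 ± 2.02 to 1.35 ± 0.515 in bhlh151-KO, a log2 fold change of -2.33 with an SE of 0.24 (limma adjusted p = 3.16e-07), and also in bhlh58-KO (-1.26, limma adjusted p = 0.00107), bHLH151-OE (-1.25, limma adjusted p = 0.000743) and bhlh58/151-KO (-0.68, limma adjusted p = 0.0455). PAxG09Ag0094000, in cluster 4, fell from 14.0 ± 2.31 to 2.86 ± 1.02 in bhlh151-KO (-1.98, SE 0.29, limma adjusted p = 3.49e-05).

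PAxG03Gg0099500, a switching ID, shows how a large within-group spread met the test. It was at 14.1, 13.1 and 16.4 FPKM in WT, listed at 0 in all bhlh58/151-KO libraries, and at 0, 15.9 and 0 in bhlh58-KO, 0, 0 and 14.7 in bhlh151-KO, 0, 17.9 and 0 in bHLH58-OE, and 14.5, 13.9 and 15.5 in bHLH151-OE. Every library was thus at 0 or between 13.1 and 17.9. Its limma adjusted p in bhlh58/151-KO against WT was 0.0457, with 0.0509 under median-of-ratios scaling, 0.0526 with the replicate number as a block, 0.0911 to 0.102 without any library of either group and 0.0565 to 0.0576 without any bHLH151-OE library.

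Within the clusters, calls against WT went mostly one way. The shares of all tested IDs to read them against are 12.9% higher and 9.51% lower in bhlh58-KO, 17.6% and 30.8% in bhlh151-KO, 12.6% and 16.3% in bhlh58/151-KO, 3.3% and 2.07% in bHLH58-OE, and 11.5% and 20.4% in bHLH151-OE. For IDs of mean at least 5 they are, in the same order, 18.4% and 12.1%, 26% and 30.6%, 19.3% and 17.8%, 5.11% and 2.99%, and 18.5% and 21.2%. In cluster 3, 10 of 18 IDs rose in bhlh58-KO, 14 in bhlh151-KO, 9 in bhlh58/151-KO, 0 in bHLH58-OE and 6 in bHLH151-OE, and none was called lower in any line by limma. In cluster 2, 13 of 19 rose in bhlh151-KO and 14 in bhlh58/151-KO, against 4 in bhlh58-KO, 2 in bHLH58-OE and 1 in bHLH151-OE, where 1 also fell. In cluster 1 the rises ran from 8 of 20 IDs in bHLH58-OE to 14 in bHLH151-OE, with 1 to 3 falls per line. Most of its rises in bhlh151-KO and bHLH58-OE were in the chromosome 17 rows of 5 and 3 consecutive numbers, whose deviations go together. In cluster 4, 6 of 11 IDs fell in bhlh151-KO and 0 rose, while in the other lines 2 or 3 rose and 0 fell. Whether these counts differ between lines was not tested.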

How the data were processed

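Total RNA of poplar roots was sequenced in 18 libraries, 3 for each of 6 genotypes, with groups taken from the sample titles. The authors deposited 1 table of FPKM values, the unit its name gives. The submitters' processing notes name DESeq2 without a role. Not given in the sources used here are the aligner, counting program, genome build and annotation. FPKM is no count, so no count test was run. From the table, log2(FPKM + 1) was taken, the members were chosen as described above, and deviations were clustered with scipy 1.17.1. Genotypes were compared with limma 3.58.1 in R 4.3.3 (group means, trend and robust estimation). The procedures were checked on simulated data with normally distributed deviations. No switching between 2 levels was simulated, so the check does not cover the switching members. Members and lists were chosen with earlier results of these data known. IDs named by rule were the first 2 by SD, those at the limit, the 2 nearest to each cluster mean, up to 2 higher and 2 lower per comparison, the 2 most alike pairs and the 2 with the largest share of 1 library. All other IDs were named after their values were seen, also where their paragraph does not say so. Replicate numbers did not pair the libraries: same-number libraries of different groups had correlations of member deviations from -0.296 to 0.374, and 14 of 45 were over 0.1.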

Additional observations from a re-analysis of the deposited data

How the results depend on the processing

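Of 285 alternative values for the counts of members, 274 stayed within 1.5 times the value given. Membership moved most with the limit on the mean: of 200 IDs chosen anew, 68 were members at a mean of at least 1, 53 with no limit, and 89 at a mean of at least 10, which is every member that reaches it. After rescaling to TPM, where 28220 IDs passed the limit of 5, 95 were members. Leaving out 1 library kept 168 to 191. The largest cluster had 31 IDs at a mean correlation of 0.4 and 12 with complete linkage, which left 1 cluster of at least 10 IDs. Members mirrored by a next-number ID numbered 18, 11 at a correlation of at most -0.9, and 16 to 19 without 1 library; these settings were chosen after seeing the data. Members called in bHLH58-OE numbered 24 in a fit of the 2 groups alone and 7 to 20 without 1 library. With the replicate number as a block, 181 members were shared and 13 to 93 members were called per comparison, and of the named calls it ended that of PAxG03Gg0099500 in bhlh58/151-KO. Of 494 alternative values for named fold changes, 20 lost the call and 0 reversed. Depth is unknown, so no lower bound on a level can be given.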
